A study of Mus musculus with 12 samples.

Results

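Described here are 50 genes of ribosome biogenesis, from RNA polymerase I to the late assembly factors, which were listed by symbol and matched to the names in the count table. All 50 were found once each among the 56748 genes of the table, and all 50 passed the filter on low counts, which kept 14794 genes. They were sorted into 7 roles by what their products are known to do. The members and roles were chosen with earlier results of these data known. Building a ribosome takes place mostly in the nucleolus. RNA polymerase I transcribes the long precursor of the ribosomal RNAs, small nucleolar ribonucleoproteins (snoRNPs) modify and fold it, and large sets of assembly factors join it to ribosomal proteins to give the small and the large subunit. Growing cells make the proteins of this pathway in large amounts, and many of their genes are textbook targets of the growth regulator MYC.

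The cells were Ba/F3, a mouse pro-B line that normally needs interleukin-3 (IL-3), and every group carried NRAS G12D, an active RAS protein. The groups differed in the construct beside it: ZsGreen alone, a fluorescent marker and the control, or ZsGreen expressed together with ETV6 (WT), with ETV6 P214L or with ETV6 I209S P214L. ETV6 is a transcriptional repressor of the ETS family. According to the submitters P214L creates a nuclear export sequence that I209S breaks, and the study asked whether I209S P214L cells resemble ETV6 WT cells. On day 0 cells were sorted into medium lacking IL-3, which was renewed on day 2, and RNA was collected on day 3. Each of the 4 groups has 3 libraries. All groups express their construct in 1 cell line, and the labels do not say whether libraries came from separate cultures, so p-values measure the spread between these libraries, which may be technical.

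The promoters of 3 members on which the results turn are shown first, as the 250 bases before the start of the gene, from RefSeq on build GRCm38.p6. Nolc1 and Nop56 were 2 of the members with the largest falls and Polr1a was one of 2 that rose. Capitals mark CCGGAAG, a core motif of ETS factors. All sequences run 5′ to 3′ on the strand of the gene.
Nolc1 (chr19:46075597-46075846, plus strand): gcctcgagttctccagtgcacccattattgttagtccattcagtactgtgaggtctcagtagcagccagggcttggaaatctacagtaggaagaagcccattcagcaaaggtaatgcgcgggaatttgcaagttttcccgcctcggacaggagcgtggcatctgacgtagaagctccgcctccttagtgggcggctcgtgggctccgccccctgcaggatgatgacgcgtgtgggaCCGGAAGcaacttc
Nop56 (chr2:130274162-130274411, plus strand): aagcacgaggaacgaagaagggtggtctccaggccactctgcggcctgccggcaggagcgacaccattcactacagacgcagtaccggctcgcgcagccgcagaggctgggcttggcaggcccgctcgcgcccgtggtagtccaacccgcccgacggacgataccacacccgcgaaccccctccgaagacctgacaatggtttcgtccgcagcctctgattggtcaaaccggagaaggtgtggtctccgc
Polr1a (chr6:71908803-71909052, plus strand): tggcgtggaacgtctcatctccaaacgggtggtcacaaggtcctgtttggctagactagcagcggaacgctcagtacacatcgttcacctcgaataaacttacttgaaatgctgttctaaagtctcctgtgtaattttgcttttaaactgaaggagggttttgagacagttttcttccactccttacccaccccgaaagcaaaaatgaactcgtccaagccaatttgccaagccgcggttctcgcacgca
Of these 3 windows, that of Nolc1 holds the motif, 14 bases before the start, and those of Nop56 and Polr1a do not. RefSeq promoters were found for 43 of the 50 members, in 52 windows, and a gene was counted once. CCGGAAG, searched on both strands, was present for 10 of the 43 members (23.3%), against 16.5% of 9790 tested genes with a promoter and 7.83% of 27025 genes in the whole table of promoters. Among tested genes lower with ETV6 WT the share was 18.2%, and among those higher it was 14.6%. CACGTG, the E-box motif bound by MYC with its partner MAX, was present for 2 members (4.65%), against 9.51% of the tested genes and 6.86% of all. Sites of the 2 motifs cannot overlap, because neither motif ends with letters that begin the other.

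Sites of both motifs are shown with up to 12 bases on either side, to compare members from different roles. Capitals mark the motif, which reads CTTCCGG where it lies on the opposite strand. Nhp2 and Polr1c belong to a snoRNP and to the polymerase, Heatr1 and Utp4 to the small-subunit processome, and Nop2 to large-subunit assembly.
Nhp2 (chr11:51619738-51619768, plus strand): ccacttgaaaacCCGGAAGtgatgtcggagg
Polr1c (chr17:46248069-46248099, minus strand): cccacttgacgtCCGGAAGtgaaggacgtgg
Heatr1 (chr13:12395347-12395374, plus strand): cgtagtgagaagCCGGAAGttcctatga
Utp4 (chr8:106893585-106893615, plus strand): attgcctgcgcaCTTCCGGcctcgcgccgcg
Utp4 (chr8:106893609-106893639, plus strand): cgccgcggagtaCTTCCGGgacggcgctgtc
Nop2 (chr6:125131833-125131863, plus strand): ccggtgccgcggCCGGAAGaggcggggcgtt
Nop2 (chr6:125131811-125131840, plus strand): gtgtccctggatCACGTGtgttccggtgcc
Rrn3 (chr16:13780472-13780501, plus strand): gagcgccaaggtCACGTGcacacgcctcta
Rrn3 (chr16:13780639-13780668, plus strand): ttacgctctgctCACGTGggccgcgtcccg
Utp4 holds the ETS motif in a pair of sites, as does Ltv1 (98 and 55 bases before the start), Rrn3 holds the E-box in a pair, and Nop2 holds one of each. The other members with the ETS motif, sites not shown, were Gar1, Nip7, Ddx10 and Ltv1. A match describes the letters only, since no binding was measured here.

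Total counts per library ranged from 14301683 to 18607595, and the lowest count of any member in any library was 348 for Gar1. Levels below are in CPM, counts scaled to one common library total with TMM factors, and are listed for libraries 1, 2 and 3 of a group in that order. For the cell-type markers, CPM were taken over each library's total counts without TMM factors. A gene was called when its adjusted p (edgeR's quasi-likelihood test, Benjamini-Hochberg over all genes tested) was under 0.05. A value in parentheses before an adjusted p is a log2 fold change, and gene positions are on mm39. Etv6 stood at 81.7 ± 5.03 CPM for ZsGreen, 109 ± 11.4 for ETV6 WT, 103 ± 4.64 for P214L and 99.1 ± 12 for I209S P214L (SD, n = 3). Counts per gene do not separate construct from endogenous gene, and how much construct RNA they hold is not known. ZsGreen 1 stood apart on the second principal component, while ETV6 WT 1 and I209S P214L 1 differed most from the rest of their groups. 18S ribosomal RNA left after poly-A selection took 1.35 to 5.90% of the counts, with the least in ETV6 WT 1 and I209S P214L 1, and ribosomal RNA production itself was not measured. Of 15 pro-B and B-lineage markers, 6 were at 0 in every library, among them Vpreb2, Igll1, Rag1, Dntt and Il7r, and 12 stayed under 1 CPM, so the label rests on little marker RNA. Fibroblast markers (7 of 7) and T-lineage markers (6 of 7) stayed under 1 CPM in every library, with 5 of the fibroblast markers and Cd8a at 0.

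Most of the pathway was lower with ETV6 WT. Against ZsGreen, 43 of the 50 members fell and 2 rose, Gnl2 and Polr1a, while Gar1, Pes1, Polr1c, Ubtf and Utp15 were not called. Of all genes tested, 18.2% were called lower and 19.5% higher. For 43 members every ETV6 WT library lay below every ZsGreen library, as it did for 22% of all genes tested. The median log2 fold change of the members was -0.50, and that of all genes tested 0.03. Together the members took 0.885 ± 0.00514% of all counts in ZsGreen libraries and 0.610 ± 0.0123% with ETV6 WT (SD, n = 3), with no overlap (lowest ZsGreen library 0.880%, highest ETV6 WT library 0.622%). P214L libraries held 0.785 ± 0.0227% and I209S P214L libraries 0.597 ± 0.00849%. In bulk RNA, fewer cells that express a gene and less of its RNA per cell cannot be told apart, and CPM are shares, so RNA per cell is not known. Marker sums of blood lineages differed between the groups too. The 8 erythroid markers, none of them under 1 CPM in every library, summed to 89.6 to 95.5 CPM across ZsGreen libraries, 262 to 358 with ETV6 WT, 63.8 to 102 with P214L and 273 to 396 with I209S P214L. Most of that difference was Hba-a1, with a mean of 34.8 CPM for ZsGreen and 237 for ETV6 WT, while Klf1 (40.6 and 24.3 CPM) and Alas2 (0.396 and 0.165 CPM) had lower means with ETV6 WT. The pro-B and B-lineage list, nearly all of it Ptprc, summed to 320.2 to 350.0, 644 to 761, 444 to 489 and 732 to 768 CPM for ZsGreen, ETV6 WT, P214L and I209S P214L. The 15 neutrophil and monocyte markers, of which Ly6g was at 0 throughout, summed to 88.4 to 90.1, 140.2 to 155, 184 to 247 and 105 to 148 CPM, and the 7 T-lineage markers to at most 4.06 CPM. Adgre1 made the rise of the former sum with ETV6 WT (19.7 CPM for ZsGreen, 128 for ETV6 WT), while the means of S100a8 (4.04 and 0.0384 CPM), S100a9 (6.53 and 0.0563), Lyz2 (8.73 and 0.768), Prtn3 (21.5 and 10.4), Mpo (6.21 and 1.09), Itgam (5.34 and 1.08) and Ngp (13.6 and 2.87) were lower. The part of these markers in the members' levels was not tested.

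**Figure D1:**
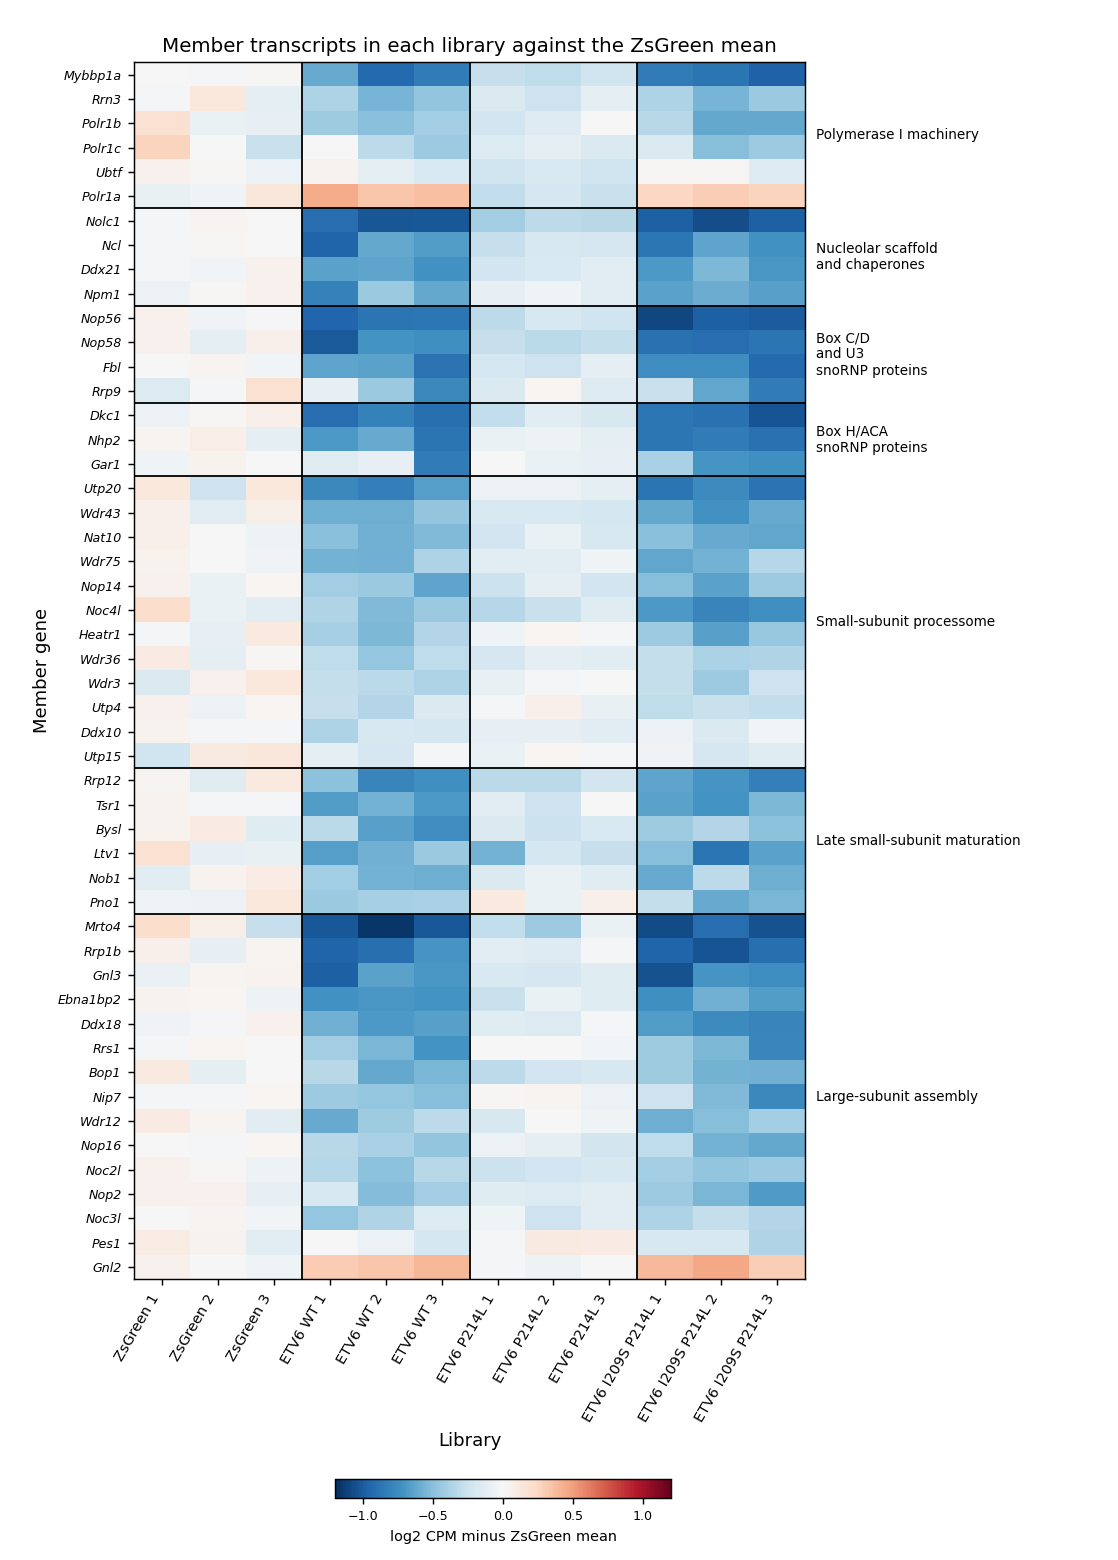
Log2 CPM of each of the 50 members (rows, grouped by role) in each of the 12 libraries (columns), minus the mean of the 3 ZsGreen libraries. Nearly all members are blue in the ETV6 WT and I209S P214L libraries and pale blue in the P214L libraries, and Polr1a and Gnl2 are red in the former.

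Measured against the ZsGreen mean, 46, 48 and 48 members lay lower in the 3 ETV6 WT libraries, 46, 43 and 46 in the P214L libraries and 47, 47 and 48 in the I209S P214L libraries. The median member stood at -0.44, -0.55 and -0.54 (log2) in the ETV6 WT libraries, at -0.17, -0.15 and -0.14 with P214L, and at -0.50, -0.60 and -0.62 with I209S P214L. Over all genes tested, the median differed from the ZsGreen mean by at most 0.06 in any of the 12 libraries. Between replicates, the median SD of the members' log2 CPM was 0.08, 0.10, 0.05 and 0.09 in ZsGreen, ETV6 WT, P214L and I209S P214L libraries, and 0.18, 0.17, 0.12 and 0.17 for all genes tested. Gar1 in the ETV6 WT group had the largest SD of any member in any group, 0.41. Replicate libraries differed by more than counting error (chi-square per degree of freedom 6.36 to 42.7 over pairs), so none was counted as a duplicate of another.

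The polymerase I machinery was the most divided of the roles, with 3 members lower, 1 higher and 2 not called with ETV6 WT. Over all genes tested the shares were 18.2% lower and 19.5% higher. Polr1a (ENSMUSG00000049553, chr6:71886037-71961919 on mm39) encodes the largest subunit, which carries the catalytic centre. Its transcript stood at 106, 109.6 and 124 CPM in the ZsGreen libraries and at 154, 143 and 145 CPM with ETV6 WT. P214L libraries had 92.0, 98.5 and 93.7 CPM and I209S P214L libraries 135, 139 and 136 CPM. Every ETV6 WT and I209S P214L library thus lay above every ZsGreen library, and every P214L library lay below. The rise with ETV6 WT was 1.30-fold (log2 fold change 0.38 ± 0.07 SE, adjusted p = 0.000345), the rise with I209S P214L was 1.205-fold (log2 fold change 0.27 ± 0.07 SE, adjusted p = 0.00516), and the change with P214L was a 1.197-fold fall (log2 fold change -0.26 ± 0.07 SE, adjusted p = 0.0433).

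Polr1b (ENSMUSG00000027395, chr2:128942915-128968514), the second largest subunit, went the other way with ETV6 WT. Its libraries held 66.9, 56.0 and 55.0 CPM with ZsGreen and 44.0, 41.6 and 44.4 CPM with ETV6 WT, with no overlap (log2 fold change -0.45 ± 0.10 SE, adjusted p = 0.00194). P214L libraries, at 50.2, 52.9 and 59.0 CPM, overlapped the ZsGreen range, and I209S P214L libraries, at 46.7, 38.5 and 38.5 CPM, lay below it. Per gene length, the 2 subunits had close levels with ZsGreen, 9.50 ± 0.807 FPKM for Polr1a and 10.2 ± 1.15 FPKM for Polr1b, and differed with ETV6 WT, at 12.3 ± 0.435 and 7.38 ± 0.239 FPKM. Polr1c (ENSMUSG00000067148, chr17:46554846-46558980), a subunit that polymerase I shares with polymerase III, varied within the control: it stood at 72.9, 60.7 and 50.3 CPM for ZsGreen, 60.7, 48.8 and 44.8 for ETV6 WT, 54.1, 56.2 and 53.7 for P214L and 53.9, 42.5 and 44.8 for I209S P214L. All 4 groups overlapped, and the value with ETV6 WT did not pass the test (-0.26, adjusted p = 0.14). I209S P214L was called lower than ZsGreen for this gene (-0.38, adjusted p = 0.0274), a call that was lost without ZsGreen 1, I209S P214L 2 or I209S P214L 3.

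Rrn3 (ENSMUSG00000022682, chr16:13598572-13632703) encodes TIF-IA, the factor that makes polymerase I competent to initiate and that growth signals regulate. Levels were 76.7, 85.0 and 71.9 CPM for ZsGreen, 60.3, 52.7 and 55.8 for ETV6 WT, 68.9, 65.6 and 71.5 for P214L and 60.2, 52.7 and 57.1 for I209S P214L. ETV6 WT and I209S P214L libraries lay below all libraries of the other groups, and the fall with ETV6 WT was 1.38-fold (log2 fold change -0.47 ± 0.09 SE, adjusted p = 0.000267). Ubtf (ENSMUSG00000020923, chr11:102195386-102210568), the HMG-box protein UBF that keeps ribosomal DNA open and recruits the initiation factor SL1, showed the smallest change of the role with ETV6 WT. It stood at 357, 349.7 and 329.5 CPM for ZsGreen, 356, 318 and 304 for ETV6 WT, 293, 304 and 292 for P214L and 349, 349 and 311 for I209S P214L. Its lowest libraries were those of P214L, which did not overlap ZsGreen, though the difference missed the threshold (-0.22, adjusted p = 0.0801). For ETV6 WT the 95% interval of its log2 fold change ran from -0.23 to 0.06.

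Mybbp1a (ENSMUSG00000040463, chr11:72332181-72342594), a nucleolar protein that binds MYB and takes part in polymerase I transcription and processing, had the largest fall of the role. It held 589, 576 and 593 CPM with ZsGreen and 385, 307 and 327 with ETV6 WT (log2 fold change -0.79 ± 0.07 SE, adjusted p = 1.5e-07). P214L libraries had 485, 473 and 497 CPM and lay between (-0.27, adjusted p = 0.0367), and I209S P214L libraries had 327, 318 and 299 CPM. Spns2, a lipid transporter gene on the opposite strand that overlaps Mybbp1a, had a mean count 183% of that of Mybbp1a and fell too (log2 fold change -1.47). Whether the library kept strand is not known, so reads of these neighbours may be mixed.

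**Figure D2:**
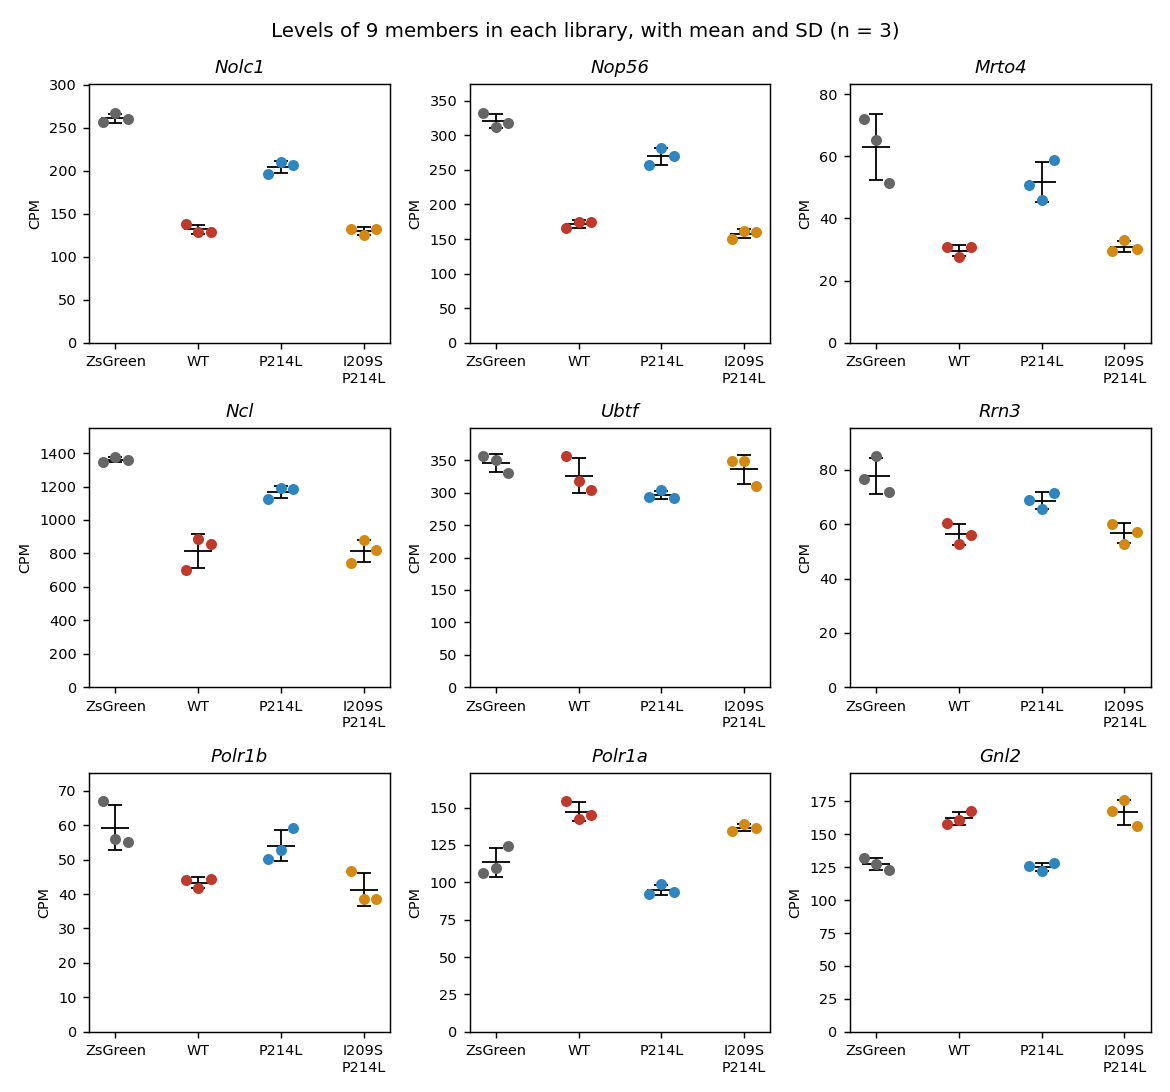
CPM of 9 members in every library (points, by group), with the group mean and SD (n = 3); each vertical axis starts at 0. Nolc1, Nop56, Mrto4, Ncl, Rrn3 and Polr1b are lowest with ETV6 WT and I209S P214L, Polr1a and Gnl2 are highest there, and Ubtf overlaps between ETV6 WT, I209S P214L and ZsGreen.

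The nucleolar scaffold and chaperone genes fell with ETV6 WT in 4 of 4 cases, beside 18.2% of all genes tested. The median log2 fold change of the 4 was -0.70. Nolc1 (ENSMUSG00000015176, chr19:46064302-46073969), the phosphoprotein Nopp140 that gathers snoRNPs in the nucleolus, held 256, 267 and 259.8 CPM with ZsGreen. ETV6 WT libraries held 138, 128 and 129 CPM, P214L libraries 196, 210.3 and 207 and I209S P214L libraries 132, 125 and 132. The ETV6 WT and I209S P214L libraries overlapped, every P214L library lay above them, and every ZsGreen library lay above those. Nolc1 had the smallest p of all members with ETV6 WT (log2 fold change -0.99 ± 0.06 SE, adjusted p = 1.12e-09) and with P214L (log2 fold change -0.35 ± 0.06 SE, adjusted p = 0.00169), and the latter was the one member called with P214L under all 23 alternative settings.

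Ncl (ENSMUSG00000026234, chr1:86272441-86287122) encodes nucleolin, an abundant RNA-binding protein of ribosomal RNA transcription and processing. Its level went from 1349, 1375 and 1361 CPM with ZsGreen to 699, 887 and 857 with ETV6 WT (log2 fold change -0.74 ± 0.08 SE, adjusted p = 7.65e-07). P214L libraries had 1127, 1194 and 1186 CPM, below every ZsGreen library but not called (-0.22, adjusted p = 0.129), and I209S P214L libraries had 745, 879 and 823 CPM. Among the ETV6 WT libraries, the first was lowest. Npm1 (ENSMUSG00000057113, chr11:33102287-33113206), nucleophosmin, a chaperone of nucleolar assembly and export, was the member with the most RNA per gene length, 424 ± 18.4 FPKM with ZsGreen. It held 1082, 1151 and 1181 CPM for ZsGreen, 648, 836 and 742 for ETV6 WT, 1059, 1100.1 and 1035 for P214L and 727, 751 and 726 for I209S P214L. Here the P214L libraries overlapped the ZsGreen libraries (-0.10, adjusted p = 0.555), and the fall with ETV6 WT was 1.53-fold (-0.62, adjusted p = 3.37e-06). Ddx21, a helicase that senses polymerase I transcription and helps process the precursor, fell by 1.59-fold with ETV6 WT (-0.67, adjusted p = 2.15e-07), from 320.0 ± 9.84 to 202 ± 6.999 CPM.

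The core proteins of the box C/D snoRNPs, which guide methylation of ribosomal RNA, and the U3 protein Rrp9 fell with ETV6 WT in 4 of 4 cases (median -0.77). Of all genes tested, 18.2% were called lower. Nop56 (ENSMUSG00000027405, chr2:130116350-130121233) held 332, 312 and 318 CPM for ZsGreen, 165, 175 and 175 for ETV6 WT, 257, 281 and 271 for P214L and 151, 162 and 161 for I209S P214L. The 4 groups did not overlap, with the order ZsGreen, P214L, ETV6 WT, I209S P214L from high to low, though the difference between the last 2 was not called (-0.12, adjusted p = 1). The log2 fold change from ZsGreen was -0.90, adjusted p = 3.76e-09 for ETV6 WT and -0.25, adjusted p = 0.0234 for P214L. Its partner Nop58 (ENSMUSG00000026020, chr1:59724130-59758203) held 349, 311 and 352 CPM for ZsGreen, 168, 204 and 202 for ETV6 WT, 278, 269 and 277 for P214L and 181, 179 and 184 for I209S P214L. Libraries of ZsGreen, of P214L and of the 2 remaining groups formed separate ranges, with Nop58 lower by 1.76-fold with ETV6 WT (-0.82, adjusted p = 1.31e-07) and by 1.23-fold with P214L (-0.30, adjusted p = 0.0268).

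Fbl (ENSMUSG00000046865, chr7:27869135-27878694), fibrillarin, the methyltransferase of the same particle, stood at 205, 208.7 and 199 CPM for ZsGreen, 132, 131 and 110.3 for ETV6 WT, 176, 172 and 189.7 for P214L and 122, 122 and 107 for I209S P214L. It fell with ETV6 WT (log2 fold change -0.72 ± 0.08 SE, adjusted p = 8.99e-07), while P214L, whose libraries lay below those of ZsGreen, was not called (-0.19, adjusted p = 0.197). Rrp9 (ENSMUSG00000041506, chr9:106353162-106362623) was the least certain: 44.0, 48.8 and 56.2 CPM for ZsGreen, 46.1, 36.2 and 28.8 for ETV6 WT, 43.9, 50.4 and 44.5 for P214L and 41.2, 32.1 and 27.6 for I209S P214L. ETV6 WT 1 lay inside the ZsGreen range, and the call (-0.43, adjusted p = 0.0414) was lost with library totals alone and without any 1 of ZsGreen 2, ZsGreen 3, ETV6 WT 2 or ETV6 WT 3. Parp3, on the opposite strand and overlapping Rrp9 with a mean count 66.2% of its own, rose with ETV6 WT (1.13).

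The box H/ACA proteins form the particles that convert uridines of ribosomal RNA to pseudouridine. Dkc1 (ENSMUSG00000031403, chrX:74139460-74153383), the pseudouridine synthase dyskerin, held 171, 181 and 187 CPM for ZsGreen, 95.2, 102 and 95.6 for ETV6 WT, 147, 163 and 157 for P214L and 98.3, 96.5 and 87.5 for I209S P214L. The P214L libraries lay between the others without overlap and were not called against ZsGreen (-0.21, adjusted p = 0.102), while the fall with ETV6 WT was 1.84-fold (-0.88, adjusted p = 2.34e-08). Nhp2 (ENSMUSG00000001056, chr11:51510562-51514541) held 193, 199.7 and 175 CPM for ZsGreen, 117, 124 and 103 for ETV6 WT, 179, 181 and 175 for P214L and 103, 105 and 101 for I209S P214L. P214L overlapped ZsGreen for this gene, and the fall with ETV6 WT was 1.65-fold (-0.72, adjusted p = 4.64e-07). Gar1 (ENSMUSG00000028010, chr3:129618561-129625045) stood at 38.3, 41.0 and 40.0 CPM for ZsGreen, 35.8, 37.0 and 22.2 for ETV6 WT, 39.8, 37.6 and 37.1 for P214L and 30.2, 24.3 and 23.8 for I209S P214L. All ETV6 WT libraries lay below ZsGreen, but only the third lay far below, and the test missed the threshold (-0.33, adjusted p = 0.0978). With I209S P214L Gar1 was called lower (-0.61, adjusted p = 0.00361).

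**Figure D3:**
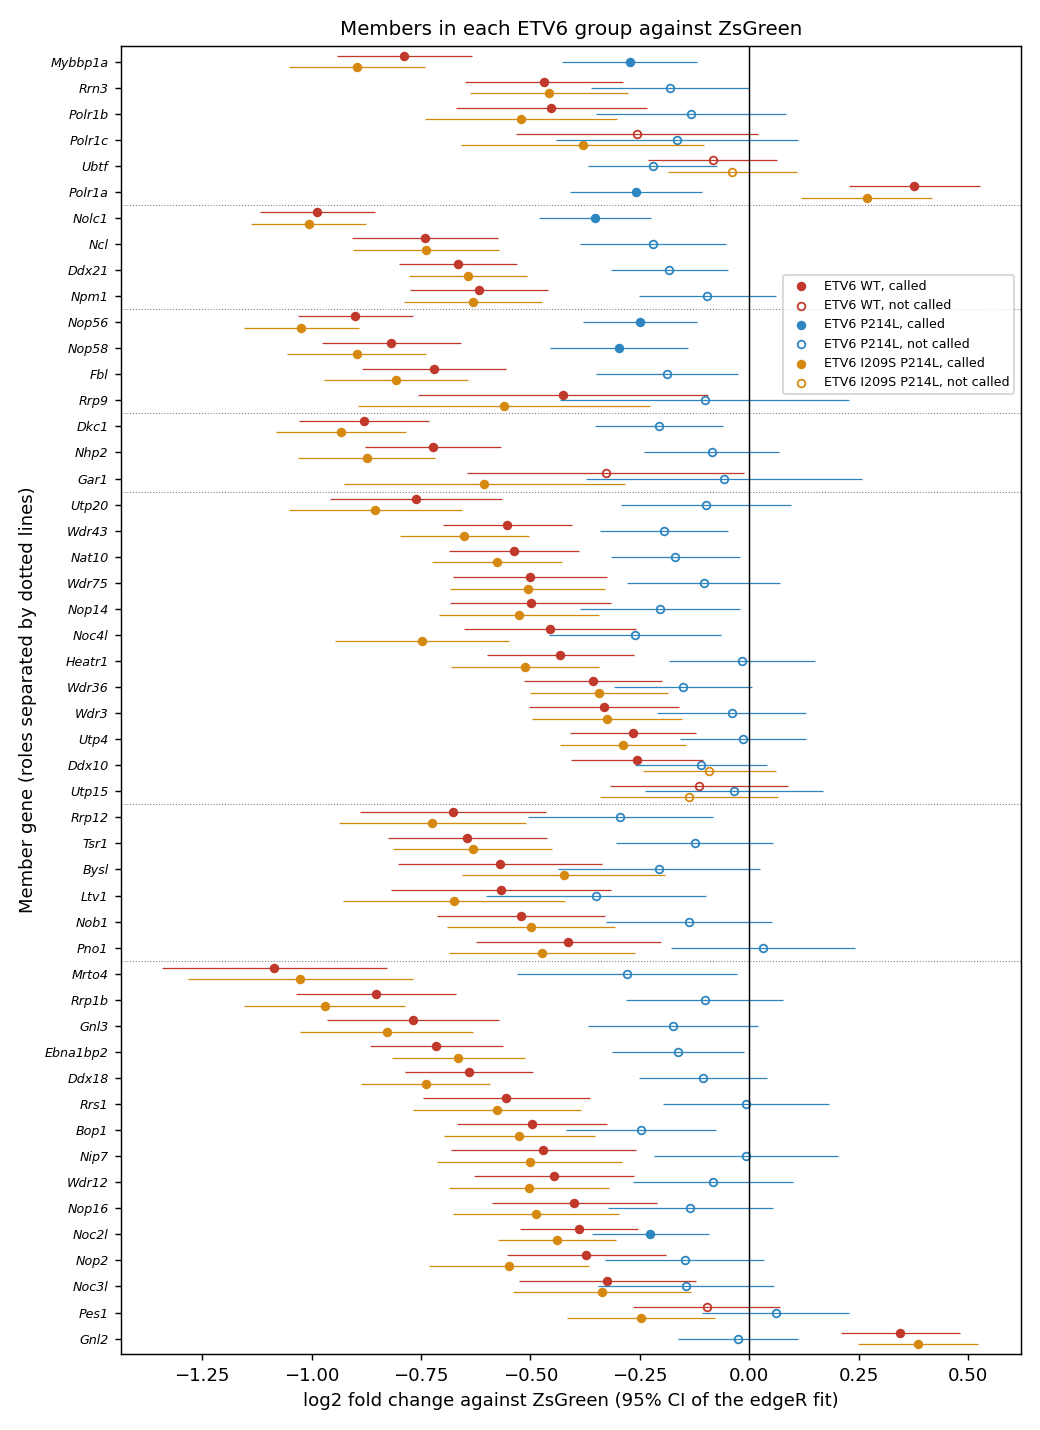
Log2 fold change of each member against ZsGreen with its 95% confidence interval from the edgeR fit, for ETV6 WT (red), P214L (blue) and I209S P214L (orange); filled points were called. Red and orange points lie mostly between -1.1 and -0.2 and near each other, and blue points lie between -0.35 and 0.06.

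The small-subunit processome assembles on the precursor as it is transcribed and makes the first cuts around the 18S RNA. Of its 12 members, 11 fell with ETV6 WT, beside 18.2% of all genes tested, and Utp15 was not called (median of the members -0.44). Utp20 (ENSMUSG00000004356, chr10:88582469-88662666), a large scaffold protein and the member with the least RNA per gene length (9.04 ± 1.31 FPKM with ZsGreen), fell most. Its libraries held 100.2, 77.3 and 101 CPM for ZsGreen, 53.7, 52.1 and 58.3 for ETV6 WT, 87.8, 87.4 and 84.7 for P214L and 50.2, 54.3 and 49.6 for I209S P214L. P214L overlapped ZsGreen (-0.10, adjusted p = 0.635), and the fall with ETV6 WT was 1.70-fold (-0.76, adjusted p = 4.09e-06). Wdr43 (ENSMUSG00000041057, chr17:71922890-71966026), a subunit of the UTP-A complex that loads early, held 183, 160.0 and 184 CPM for ZsGreen, 117, 116 and 126 for ETV6 WT, 155, 154 and 152 for P214L and 114, 106 and 115 for I209S P214L (-0.55, adjusted p = 5.46e-06 for ETV6 WT). Each P214L library lay below ZsGreen and above ETV6 WT, and the former difference was not called (-0.19, adjusted p = 0.127).

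Utp15 (ENSMUSG00000041747, chr13:98383353-98399549), of the same UTP-A complex, did not pass the test with ETV6 WT (-0.11, adjusted p = 0.387): it held 54.6, 69.6 and 70.7 CPM for ZsGreen, 59.8, 56.1 and 64.0 for ETV6 WT, 61.0, 65.6 and 63.6 for P214L and 62.5, 56.0 and 58.4 for I209S P214L. All groups overlapped, and the 95% interval of the log2 fold change with ETV6 WT ran from -0.32 to 0.09. The other UTP-A subunits Heatr1 (-0.43), Utp4 (-0.27), Wdr43 and Wdr75 (-0.50) were called lower, and the difference between them and Utp15 was not tested. Nat10, which acetylates cytidines of 18S RNA, fell too with ETV6 WT (-0.54, adjusted p = 8.38e-06). Further falls were Nop14 (-0.50), Noc4l (-0.45), Wdr36 (-0.36), Wdr3 (-0.33) and the helicase Ddx10 (-0.26). The call of Ddx10 was lost without the first libraries of ZsGreen, ETV6 WT and I209S P214L together.

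Factors of late small-subunit maturation act in the nucleoplasm and cytoplasm, and 6 of 6 fell with ETV6 WT (median -0.57). The share called lower was 18.2% over all genes tested. Rrp12 (ENSMUSG00000035049, chr19:41851290-41884612), which helps both subunits leave the nucleus, held 61.4, 54.1 and 65.1 CPM for ZsGreen, 42.5, 34.6 and 35.9 for ETV6 WT, 48.0, 47.9 and 51.5 for P214L and 38.7, 36.7 and 33.9 for I209S P214L (log2 fold change -0.68 ± 0.10 SE, adjusted p = 3.56e-05 for ETV6 WT). P214L libraries lay between, and were not called against ZsGreen (-0.29, adjusted p = 0.106). Tsr1 (ENSMUSG00000038335, chr11:74788897-74800168), a GTPase-like factor that blocks early joining of the subunits, held 68.1, 65.4 and 65.5 CPM for ZsGreen, 41.5, 44.6 and 41.2 for ETV6 WT, 60.8, 55.6 and 66.1 for P214L and 42.5, 40.2 and 45.6 for I209S P214L. P214L 3 reached the ZsGreen range, and ETV6 WT was lower by 1.56-fold (-0.64, adjusted p = 1.07e-05). Pno1 (ENSMUSG00000020116, chr11:17153198-17161568), the partner of the nuclease Nob1, fell least of the role, from 48.7, 48.2 and 55.1 CPM with ZsGreen to 37.1, 38.4 and 38.6 with ETV6 WT (-0.41, adjusted p = 0.0031). P214L libraries, at 54.8, 47.7 and 52.8 CPM, overlapped ZsGreen, and I209S P214L libraries held 41.5, 33.2 and 34.6 CPM. Nob1, which makes the final cut of 18S RNA (-0.52), the export adaptor Ltv1 (-0.57) and Bysl (-0.57) fell as well. Bysl overlaps Ccnd3 on the opposite strand, whose mean count was 841% of its own, so its value is uncertain.

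Large-subunit assembly was the largest role, with 13 of 15 members lower, Gnl2 higher and Pes1 not called with ETV6 WT (median -0.47). Over all genes tested 18.2% were called lower and 19.5% higher. Mrto4 (ENSMUSG00000028741, chr4:139074746-139079887), which holds the place of the stalk protein on the nascent subunit, had the largest log2 change of all 50 members. It held 72.1, 65.2 and 51.4 CPM for ZsGreen, 30.7, 27.6 and 30.7 for ETV6 WT, 50.8, 46.0 and 58.8 for P214L and 29.6, 33.1 and 30.1 for I209S P214L. ETV6 WT and I209S P214L libraries lay well below the rest, and P214L overlapped ZsGreen, where ZsGreen 3 was lowest. The fall with ETV6 WT was 2.12-fold (log2 fold change -1.08 ± 0.12 SE, adjusted p = 1.44e-06). Its pseudogene Mrto4-ps1 had a mean count of 66.4 against 717 for Mrto4, and reads could be split between them. Rrp1b (ENSMUSG00000058392, chr17:32255074-32281839), a nucleolar processing factor, held 86.2, 76.7 and 84.6 CPM for ZsGreen, 42.4, 44.1 and 50.5 for ETV6 WT, 75.2, 74.0 and 81.7 for P214L and 42.2, 40.1 and 44.1 for I209S P214L. P214L overlapped ZsGreen, and the fall with ETV6 WT was 1.81-fold (-0.85, adjusted p = 4.1e-07).

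Gnl2 (ENSMUSG00000028869, chr4:124910378-124949173), a nucleolar GTPase of the maturing large subunit, is described in full because it rose, a choice made after its values were seen. Its libraries held 132, 128 and 123 CPM for ZsGreen, 158, 161 and 168 for ETV6 WT, 126, 122 and 128 for P214L and 168, 176 and 157 for I209S P214L. ETV6 WT (log2 fold change 0.35 ± 0.06 SE, adjusted p = 0.000335) and I209S P214L (log2 fold change 0.39 ± 0.06 SE, adjusted p = 0.000102) lay above ZsGreen in every library, and P214L overlapped it (-0.03, adjusted p = 0.894). Its relative Gnl3, nucleostemin, fell with ETV6 WT (-0.77, adjusted p = 3.58e-06), from 144 ± 6.71 to 84.5 ± 10.2 CPM. Pes1, Bop1 and Wdr12 form the PeBoW complex needed for large-subunit processing. Bop1 (-0.50, adjusted p = 9.53e-05) and Wdr12 (-0.45, adjusted p = 0.000484) fell with ETV6 WT, whereas Pes1 (ENSMUSG00000020430, chr11:3913975-3930004) stood at 136, 132 and 116 CPM for ZsGreen, 127, 122 and 110.0 for ETV6 WT, 126, 137 and 137 for P214L and 112, 112 and 99.6 for I209S P214L. ETV6 WT overlapped ZsGreen for Pes1 (-0.10, adjusted p = 0.374), and I209S P214L lay below and was called (-0.25, adjusted p = 0.0191), though not without ZsGreen 1, ZsGreen 2 or I209S P214L 3. Ebna1bp2 (-0.72), the helicase Ddx18 (-0.64), Rrs1 (-0.56), Nip7 (-0.47), Nop16 (-0.40), Noc2l (-0.39), the methyltransferase Nop2 (-0.37) and Noc3l (-0.32) were the other members lower with ETV6 WT. The call of Noc3l was lost without ETV6 WT 1 and also without those 3 first libraries.

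Some features of the genes were not used to choose them. Of the 50 members, 7 hold snoRNA genes within their span on the same strand, 21 in all: Ncl, Nop56, Nop58, Dkc1, Wdr43, Tsr1 and Gnl3. All 7 fell with ETV6 WT, as did 43 of the 50 members (86%) and 18.2% of all genes tested. Whether these hosts differ from other members was not tested. Each of these snoRNAs had at most 25 counts in any library, so the values here are those of the host transcripts. For 13 members another gene on the opposite strand overlapped with at least 10% of the member's mean count. Beside those named above, these were Bop1 with Mroh1 (117%), Gnl3 with Pbrm1 (102%), Nhp2 with Rmnd5b (57.0%), Heatr1 with Lgals8 (55.3%), Nop56 with Idh3b (53.3%), Pno1 with Dnaaf10 (49.9%), Wdr3 with Gdap2 (45.6%), Dkc1 with Mpp1 (39.5%), Tsr1 with Srr (19.9%) and Wdr12 with Carf (11.1%). Mroh1 (log2 fold change 0.61) and Lgals8 (0.58) rose with ETV6 WT while the members they overlap fell. Ccnd3 (-0.29) and Mpp1 (-0.26) fell, and Idh3b (-0.18), Pbrm1 (-0.07) and Rmnd5b (-0.03) were not called.

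P214L against ZsGreen asks which differences from the control remain when ETV6 carries the export sequence. Here 6 of the 50 members fell and none rose, where 1.61% of all genes tested were called lower and 3.47% higher. The 6 were Nolc1 (-0.35), the box C/D proteins Nop58 (-0.30) and Nop56 (-0.25), Mybbp1a (-0.27), Polr1a (-0.26) and the large-subunit factor Noc2l (-0.23, adjusted p = 0.0491), all on the log2 scale. The call of Polr1a, which rose with ETV6 WT, was lost under 8 of the 23 alternatives, among them leaving out any 1 P214L library. The median member changed by -0.15, against 0.01 for all genes tested, and 48 of 50 had values below 0, as had 48.6% of all genes tested. An unadjusted p under 0.05 in the edgeR fit was found for 21 members (42%) and 17.9% of all genes tested. For 27 members every P214L library lay below every ZsGreen library, which held for 12.2% of all genes tested. For 23 members (46.0%) every P214L library lay below all of ZsGreen and above all of ETV6 WT, and 5.1% of all genes tested did so. Among them were Nolc1, Ncl, Fbl, Nop56, Nop58, Dkc1, Mybbp1a and Rrn3. The count called depends on single libraries: it was 2, 4 and 3 without ZsGreen 1, 2 and 3, and 1, 2 and 1 without P214L 1, 2 and 3. It was 9 without ETV6 WT 1, 12 with only these 2 groups in the fit, 10 with DESeq2 and 3 with no filter on low counts. Leaving out ETV6 WT 1 changes the shared estimate of spread, the filter and the scaling, and their parts were not separated. Among all genes tested, the number called lower moved as well from its 238. It was 130, 172 and 182 without ZsGreen 1, 2 and 3, and 74, 129 and 83 without P214L 1, 2 and 3. Without ETV6 WT 1 it was 338, with only these 2 groups 485, with DESeq2 442 and with no filter 249. The genes tested numbered 13542 to 26739 over these fits.

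Against ETV6 WT, most members were higher with P214L, a comparison that shares its ETV6 WT libraries with that of ETV6 WT against ZsGreen. The members called were 36 higher and 2 lower with P214L, Polr1a (-0.64, adjusted p = 2.08e-06) and Gnl2 (-0.37, adjusted p = 0.000255), where 14.6% of all genes tested were called higher and 14.6% lower. The median member was 0.37 higher. The largest difference was that of Mrto4 (log2 fold change 0.81 ± 0.12 SE, adjusted p = 6.57e-05), and the smallest p values were those of Nop56 (0.65, adjusted p = 2.97e-07), Nolc1 (0.63, adjusted p = 3.9e-07), Dkc1 (0.67, adjusted p = 9.01e-07), Polr1a and Rrp1b (0.75, adjusted p = 2.94e-06). All 4 scaffold and chaperone members were higher, as were 9 of 12 processome members and 10 of 15 of large-subunit assembly. Of the 12 members not called, Ubtf had a value below 0 (-0.14, adjusted p = 0.163) and the rest lay above 0, from 0.08 for Utp15 to 0.32 for Rrp9.

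I209S P214L against ZsGreen gave 45 members lower and 2 higher, again Polr1a and Gnl2, where 20.7% of all genes tested were called lower and 20.8% higher. Ddx10 (-0.09, adjusted p = 0.341), Ubtf (-0.04, adjusted p = 0.699) and Utp15 (-0.14, adjusted p = 0.28) were not called. The median member changed by -0.55, and that of all genes tested by 0.03. Smallest p values were found for Nop56 (log2 fold change -1.02 ± 0.06 SE, adjusted p = 6.02e-10), Nolc1 (-1.01, adjusted p = 6.96e-10), Dkc1 (-0.93, adjusted p = 9.14e-09), Mybbp1a (-0.90, adjusted p = 2.6e-08) and Nop58 (-0.90, adjusted p = 3.41e-08), and the largest change was that of Mrto4 (log2 fold change -1.03 ± 0.12 SE, adjusted p = 2.29e-06). By role, 4 of 6 polymerase I members fell, as did 4 of 4 scaffold, 4 of 4 box C/D, 3 of 3 box H/ACA, 10 of 12 processome, 6 of 6 late small-subunit and 14 of 15 large-subunit members.

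Whether the second mutation restores the level seen with ETV6 WT was read from I209S P214L against ETV6 WT. No member was called by edgeR, DESeq2 or limma-voom, where edgeR called 0.0338% of all genes tested. In edgeR 2 members had an unadjusted p under 0.05, a share of 4% beside 3.46% of all genes tested. The median member differed by -0.05, and all 95% intervals of log2 fold changes lay within -0.60 to 0.38. Noc4l, a processome factor, had the smallest p: its I209S P214L libraries, at 52.2, 48.4 and 50.5 CPM, lay below those of ETV6 WT, at 65.3, 58.0 and 61.8 CPM, and its log2 fold change was -0.29 (interval -0.49 to -0.09, adjusted p = 0.926). ZsGreen libraries held 97.6, 79.7 and 76.4 CPM and P214L libraries 66.1, 69.7 and 75.8 CPM, so I209S P214L was the lowest group. The helicase gene Ddx10 was next, with 80.4, 74.5 and 82.2 CPM in I209S P214L libraries, 65.0, 73.6 and 72.9 with ETV6 WT, 86.5, 83.3 and 82.8 with ZsGreen and 78.7, 78.6 and 76.8 with P214L (interval 0.01 to 0.32, adjusted p = 1). Nop2 (interval -0.36 to 0.01), Nhp2 (-0.31 to 0.01) and Nop56 (-0.25 to 0.01) followed. For Nop2 the I209S P214L libraries held 93.9, 86.9 and 79.2 CPM and overlapped the 111, 88.1 and 94.98 CPM of ETV6 WT, with 131, 132 and 118 for ZsGreen and 115, 113 and 116 for P214L. For Nolc1 the interval was -0.15 to 0.11, for Ncl -0.16 to 0.17, and for Polr1a -0.26 to 0.04. An interval that holds 0 does not show equal levels: it gives the size of difference that these 3 libraries against 3 leave possible.

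I209S P214L against P214L differs by I209S alone. With it, 41 members fell and 2 rose, Polr1a (log2 fold change 0.53 ± 0.07 SE, adjusted p = 1.47e-05) and Gnl2 (log2 fold change 0.41 ± 0.06 SE, adjusted p = 7.69e-05), where 17.1% of all genes tested were called lower and 15.9% higher. The median member changed by -0.44, against 0.00 over all genes tested. Rrp1b had the largest fall (log2 fold change -0.87 ± 0.09 SE, adjusted p = 4.53e-07), and Nop56 (-0.77, adjusted p = 2.79e-08), Nhp2 (-0.79, adjusted p = 2.06e-07), Nolc1 (-0.65, adjusted p = 2.12e-07) and Dkc1 (-0.73, adjusted p = 2.98e-07) were among the smallest p. Members not called were Polr1c, Ubtf, Utp15, Wdr36, Ddx10, Bysl and Noc3l.

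This comparison shares no library with that of ETV6 WT against ZsGreen, so the members' values can be set side by side. Over the 50 members the log2 fold changes had a Pearson correlation of 0.894, given as a description since genes are not independent replicates, and 48 members had the same sign. Of those called lower, 39 were so in both, which is 90.7% of the 43 with ETV6 WT and 95.1% of the 41 with I209S, and both members that rose were the same. Over all 14794 genes tested the correlation was 0.701, 79.5% had the same sign, and the genes called lower in both were 73.4% and 78.1% of those lower in each. Whether the members differ from other genes in this was not tested. Bysl, Ddx10, Noc3l and Wdr36 were called lower in the former alone, and Gar1 and Pes1 in the latter alone; these differences were not tested.

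**Figure D4:**
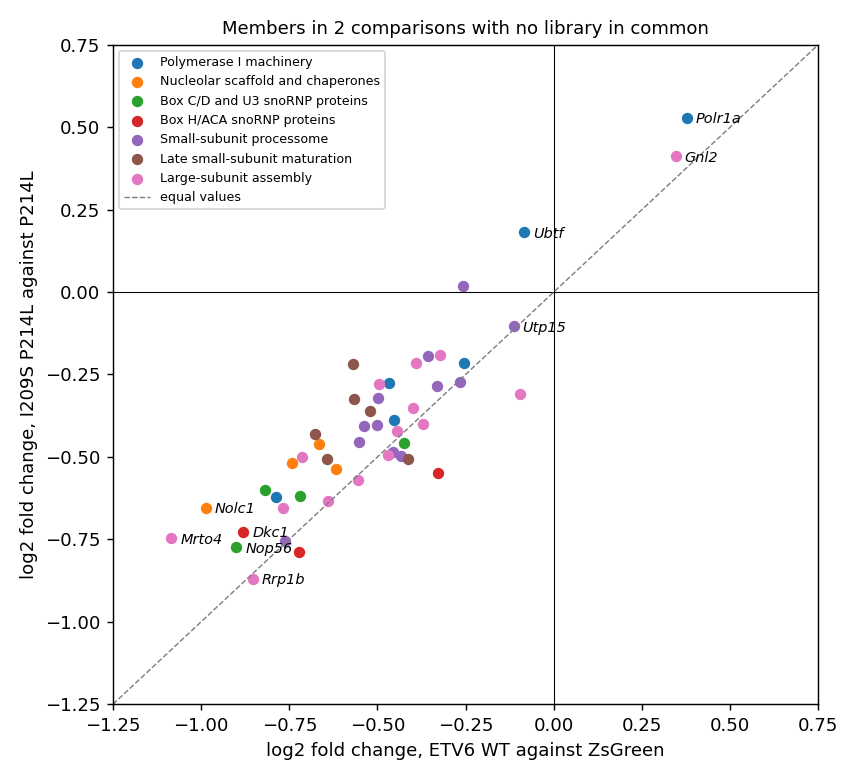
Log2 fold change of each member in I209S P214L against P214L (vertical) and in ETV6 WT against ZsGreen (horizontal), coloured by role, with a dashed line of equal values. The 39 members called lower in both lie in the lower left, and Polr1a and Gnl2 lie in the upper right.

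Asked whether a member differed among the 4 groups at all, 47 of 50 passed the test, and 41% of all genes tested did. Polr1c (adjusted p = 0.123), Ubtf (adjusted p = 0.0727) and Utp15 (adjusted p = 0.594) were the exceptions.

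Other genes of the pathway, 140 in 6 lists written from their known functions, were followed for context, and 135 could be tested. These lists too were chosen with earlier results of these data known. With ETV6 WT 80 fell (59.3%) and 6 rose (4.44%), with a median of -0.31. Among all genes tested 18.2% were called lower and 19.5% higher, with a median of 0.03. Of the other polymerase I subunits and factors, 6 of 11 fell and 1 rose: the subunit Polr1f went from 95.01 ± 9.66 to 67.9 ± 5.86 CPM (-0.49, adjusted p = 0.000162) and the SL1 subunit Taf1d changed by -0.58. Baz2a, the TIP5 subunit of the complex that silences ribosomal DNA, rose from 90.2 ± 7.03 to 109 ± 4.51 CPM (0.27, adjusted p = 0.0127). Among other snoRNP proteins and assembly factors 7 of 10 fell and none rose, led by Snu13, a core box C/D protein (-0.85, adjusted p = 8.11e-08), and the ATPase Ruvbl2 (-0.56). In the small-subunit list 21 of 40 fell, such as Nol11 (-0.66), and 1 rose, the late-acting kinase Riok3, from 131 ± 0.883 to 182 ± 12.7 CPM (0.47, adjusted p = 1.73e-05).

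Of 48 other large-subunit factors, 31 fell, including Rpf2, which brings the 5S particle (-1.14, adjusted p = 2.25e-06), and Ftsj3 (-0.59), and 3 rose. Those were Sbds (0.42), the Shwachman-Diamond protein that releases eIF6 in the cytoplasm, Zfp622 (0.32), which also acts on cytoplasmic subunits, and Nop53 (0.24). The RNA exosome, which trims ribosomal RNA ends, had 10 of 13 lower and none higher, with Exosc8 at 71.0 ± 7.72 CPM in ZsGreen and 33.5 ± 1.096 with ETV6 WT (-1.08, adjusted p = 4.9e-08) and the nuclease Dis3 at -0.90. Of 13 long noncoding snoRNA hosts, 5 fell, among them Snhg5 (-0.69) and Snhg1 (-0.53), and Snhg20 rose (1.04). Beside these counts with ETV6 WT, 18.2% of all genes tested were called lower and 19.5% higher. With P214L, 4 of the 135 genes (2.96%) fell and none rose: Snu13 (-0.37), Naf1 (-0.42), Exosc8 (-0.41) and Top1 (-0.26). Of all genes tested, 1.61% were called lower and 3.47% higher with P214L. With I209S P214L 79 fell and 6 rose, where 20.7% of all genes tested were called lower and 20.8% higher.

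Products of the pathway and relatives of the polymerase were counted the same way. With ETV6 WT, 44 of 82 cytosolic ribosomal protein genes fell and 1 rose (median -0.24), and 44 of 77 mitochondrial ribosomal protein genes fell and none rose (median -0.35). RNA polymerase II had 6 of 13 subunits lower and 1 higher (median -0.25), and RNA polymerase III 3 of 9 lower and none higher (median -0.20). Over all genes tested 18.2% were called lower and 19.5% higher, with a median of 0.03. With P214L no gene of these 4 lists was called, where 1.61% of all genes tested were called lower and 3.47% higher. Unadjusted p values under 0.05 in the edgeR fit numbered 9 of 82, 11 of 77, 1 of 13 and 0 of 9, beside 17.9% of all genes tested. With I209S P214L the counts lower were 51, 50, 5 and 4, where 20.7% of all genes tested were called lower. The differences between these lists and the 50 members were not tested.

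**Figure D5:**
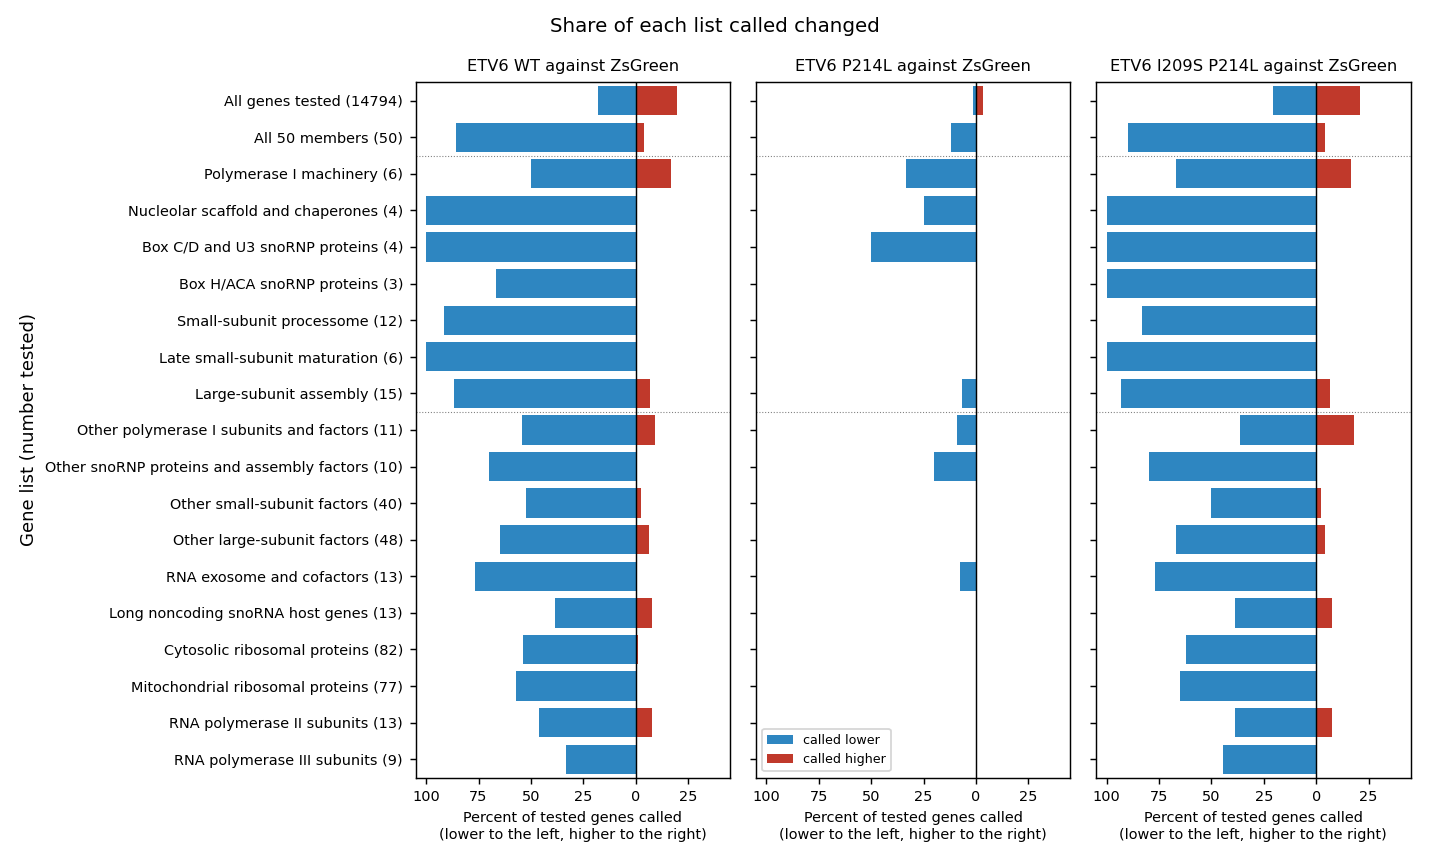
Percent of tested genes called lower (blue, left) and higher (red, right) against ZsGreen, for all genes tested, the 50 members, their 7 roles, 6 lists of other pathway genes and 4 lists of ribosomal proteins and other polymerases; the number tested is in parentheses. With ETV6 WT and I209S P214L 86% and 90% of the members were called lower, and with P214L 12%.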

How the data were processed

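Poly-A RNA of 12 Ba/F3 libraries was sequenced. Per the submitters' processing notes, reads were aligned with HISAT2 2.0.5 to mm39 and assigned to genes with featureCounts 1.5.0-p3. The deposited table gives raw counts per gene, with each gene's length, position and name, and the annotation release is not given in the sources used here. The authors' FPKM columns, counts scaled by gene length and library total, were used only to set levels of different genes side by side. The labels' protocols describe both directional and non-directional libraries, so whether counting used strand is not known. The authors' own comparisons were not used.

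The members, their roles and the other lists were chosen with earlier results of these data known. Counts of all genes that passed edgeR's filterByExpr were scaled by TMM and fitted in edgeR 4.0.16 (R 4.3.3) with 1 mean per group over all 12 libraries. Each of the 6 pairs of groups was tested by the two-sided quasi-likelihood test with Benjamini-Hochberg adjustment over all 14794 genes tested, and all 4 groups were tested together. Each SE was the absolute log2 fold change over the square root of that test's F statistic, and 95% intervals were built from it. Both are therefore approximate. The fit was tested first on simulated counts. Depth, at the totals given, put at least 348 counts behind each member value. Every library's value is given for Nolc1, Ncl, Npm1, Fbl, Polr1a, Polr1b, Polr1c, Ubtf and Rrn3, for the 2 members of each role with the largest and the 1 with the smallest change with ETV6 WT, and in each other comparison for the 5 with the smallest p and the 1 with the largest change. Of the other lists, the 2 genes with the smallest p with ETV6 WT and those called against most of their list are named. The 23 alternatives changed the scaling, the filter, the tool (DESeq2 1.42.0, limma-voom in limma 3.58.1), the groups fitted, the replicate block and the libraries left out. Leaving 18S and other ribosomal RNA genes out of the totals was added after seeing the data.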

Additional observations from a re-analysis of the deposited data

How the results depend on the processing

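Members called numbered 44 to 46 over 23 alternatives for ETV6 WT against ZsGreen (45 as reported), 45 to 48 for I209S P214L against ZsGreen (47), 31 to 43 for P214L against ETV6 WT (38), 38 to 45 for I209S P214L against P214L (43), 45 to 48 for any group difference (47, over 22 alternatives, since a fit of only 2 groups has no such test), and 0 for I209S P214L against ETV6 WT. No called member changed sign under any of these alternatives. For P214L against ZsGreen the count of 6 became 3 with no filter on low counts, 10 with DESeq2 and 12 with only the 2 groups compared, and it ran from 1 to 9 when 1 library was left out. In that comparison the genes called higher and lower, 513 and 238 of all tested, became 617 and 485 with only the 2 groups compared, 295 and 74 without P214L 1, and 307 and 83 without P214L 3. For I209S P214L against ETV6 WT, 5 genes in all were called by edgeR, 23 by DESeq2 and 3 by limma-voom, none of them a member.

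With the replicate block, the counts were 45, 8, 47, 39, 0 and 44 for ETV6 WT, P214L and I209S P214L against ZsGreen, P214L and I209S P214L against ETV6 WT, and I209S P214L against P214L. The labels state no pairing, and the main fit did not pair libraries by number. Of 18 same-number pairs, 2 correlated above 0.1 in their deviations from the group means (range -0.061 to 0.528). Both were of ETV6 WT with I209S P214L, the first libraries (0.528) and the third (0.254), where pairs of unlike number reached at most 0.161. In all, 8 of 12 libraries correlated best with their own number. Whether libraries of one number were handled together is not known from the labels.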
